A study of Homo sapiens with 2 samples.

Results

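The genes described here are 49 components of the human DNA replication machinery, from the proteins that license origins to those that drive the fork, supply nucleotides and repackage the new DNA. They were chosen by name, as every probe set of the array whose annotation held the symbol of 1 listed gene and no other. All 49 genes were found, on 95 of 54675 probe sets, among 19735 named genes in all.

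Total RNA came from HARA-B4, a subline that metastasises strongly to bone, and from HARA, the parental line, which was established from a squamous cell cancer of the human lung. Both were grown in the same serum-containing RPMI medium, and biotin-labelled cRNA of each was hybridised to 1 Affymetrix array. The subline is a single derivative of 1 tumour line, and the sources used here do not say how it was selected. There are no replicates, so every difference below is between 1 array and 1 array, carries no p-value and has no biological error beside it.

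Replication begins when the origin recognition complex (ORC), CDC6 and CDT1 load the ring-shaped MCM helicase onto DNA, the step called licensing, which geminin holds back outside its proper phase. In S phase the CDC45 protein and the GINS complex turn the ring into an active helicase, polymerase alpha-primase lays down primers, and polymerases delta and epsilon extend them on the sliding clamp PCNA. Many of these genes are transcribed by E2F factors at entry into S phase, and their transcripts are widely used as marks of proliferating cells.

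In both lines the 49 listed replication genes were expressed, and most of their transcript levels were close between the lines. All 49 genes were above background on both arrays, and 0 of the 49 differed by 2-fold or more, where 7.83% of the 11486 genes above background on at least 1 array did. At 2-fold, 3.62% of all genes were higher in HARA-B4 and 4.21% lower. Background was a signal of 27.2, the 95th percentile over both arrays of 163 probe sets for chemosensory receptors (smell, taste, pheromone). These genes were taken to be mostly silent in the 2 lines, an assumption that was not tested. The median log2 difference (HARA-B4 minus HARA) was 0.01 over the 49 genes and 0.01 over all genes tested. There were 25 positive and 24 negative differences, from -0.95 for POLE to 0.56 for CDC6. At 1.5-fold, 0 genes were higher in HARA-B4, against 10.2% of all genes, and 2 were lower, POLE and MCM8, against 11.0% of all genes. These counts hold for the listed genes, which were chosen with earlier results of these data known. Of 50 other replication genes, described below, 6.0% differed by 2-fold or more.

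The promoters of the genes at both ends of that range are shown first, because members of this set are known as E2F targets. They are RefSeq sequences of build GRCh38.p14, from 250 bases before to 50 after the gene start, 5′ to 3′ on the gene's strand, for CDC6 (chr17:40287629-40287928, plus strand), ORC3 (chr6:87589885-87590184, plus), MCM8 (chr20:5950402-5950701, plus) and POLE (chr12:132687293-132687592, minus). CDC6 and ORC3 had the largest positive differences and POLE and MCM8 the largest negative ones among the 43 genes with an entry in the sequence table. Capitals mark matches to an E2F-type motif of 8 bases.
CDC6: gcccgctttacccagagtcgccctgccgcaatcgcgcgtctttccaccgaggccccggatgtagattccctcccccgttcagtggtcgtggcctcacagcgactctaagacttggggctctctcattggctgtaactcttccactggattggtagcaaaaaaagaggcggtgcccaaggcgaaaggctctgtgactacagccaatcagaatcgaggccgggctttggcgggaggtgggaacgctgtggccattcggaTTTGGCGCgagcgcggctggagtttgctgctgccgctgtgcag
ORC3: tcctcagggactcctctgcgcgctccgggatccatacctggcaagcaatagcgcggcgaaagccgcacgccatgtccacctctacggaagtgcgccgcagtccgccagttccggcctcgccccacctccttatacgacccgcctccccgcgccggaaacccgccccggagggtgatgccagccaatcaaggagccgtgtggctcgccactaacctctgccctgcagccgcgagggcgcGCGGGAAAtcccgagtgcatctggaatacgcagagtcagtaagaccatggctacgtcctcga
MCM8: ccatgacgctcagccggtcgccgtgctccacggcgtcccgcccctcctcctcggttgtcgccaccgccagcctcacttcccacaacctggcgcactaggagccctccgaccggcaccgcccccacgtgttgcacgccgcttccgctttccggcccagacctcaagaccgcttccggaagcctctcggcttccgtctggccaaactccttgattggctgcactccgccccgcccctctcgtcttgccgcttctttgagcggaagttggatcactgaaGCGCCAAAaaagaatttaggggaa
POLE: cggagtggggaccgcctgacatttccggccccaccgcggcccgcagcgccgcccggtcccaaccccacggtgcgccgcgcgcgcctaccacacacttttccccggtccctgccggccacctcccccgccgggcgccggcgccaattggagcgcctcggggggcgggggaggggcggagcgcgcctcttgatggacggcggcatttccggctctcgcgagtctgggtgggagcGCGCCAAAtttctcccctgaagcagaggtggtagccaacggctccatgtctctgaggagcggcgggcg
Each of the 4 promoters held 1 match. The match began 7 bases after the gene start in CDC6 and 26 bases after it in MCM8, and 12 bases before it in ORC3 and 18 bases before it in POLE. The motif was thus present in promoters from both ends of the range of differences.

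Searched on both strands in the forms TTTCCCGC, TTTGGCGC, TTTCGCGC and TTTGCCGC, the E2F-type motif was found for 21 of the 43 replication genes with a promoter entry (48.8%). It was found for 5.40% of 15843 protein-coding genes and 3.99% of all 27305 genes of the table. Counted by promoter, since some genes have several, 36.8% of 57 entries of the replication genes held it, against 3.31% of 35116. The CCAAT box, searched as CCAAT, was found for 67.4% of the 43 genes and 42.1% of protein-coding genes. The GC box GGGCGG was found for 79.1% against 64.3%, and TTTGAA, a form of the CHR element of genes expressed late in the cycle, for 4.65% against 15.8%. GC and E2F-type matches can overlap, and the median GC content was 65.0% in these 57 promoters and 62.3% in those of protein-coding genes. Genes with an E2F-type match had a median log2 difference of -0.002 (21 genes, from -0.95 to 0.56) and those without one 0.01 (22 genes, from -0.39 to 0.45). Genes with a CCAAT box had a median of -0.002 (29 genes, 14 positive and 15 negative) and those without one 0.01 (14 genes, 7 positive and 7 negative). Genes with a GC box had a median of -0.05 (34 genes, 14 positive and 20 negative) and those without one 0.11 (9 genes, 7 positive and 2 negative). TTTGAA was found for 2 genes, 1 positive and 1 negative. These splits carry no test, and genes of both signs stood on each side of them.

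**Figure D1:**
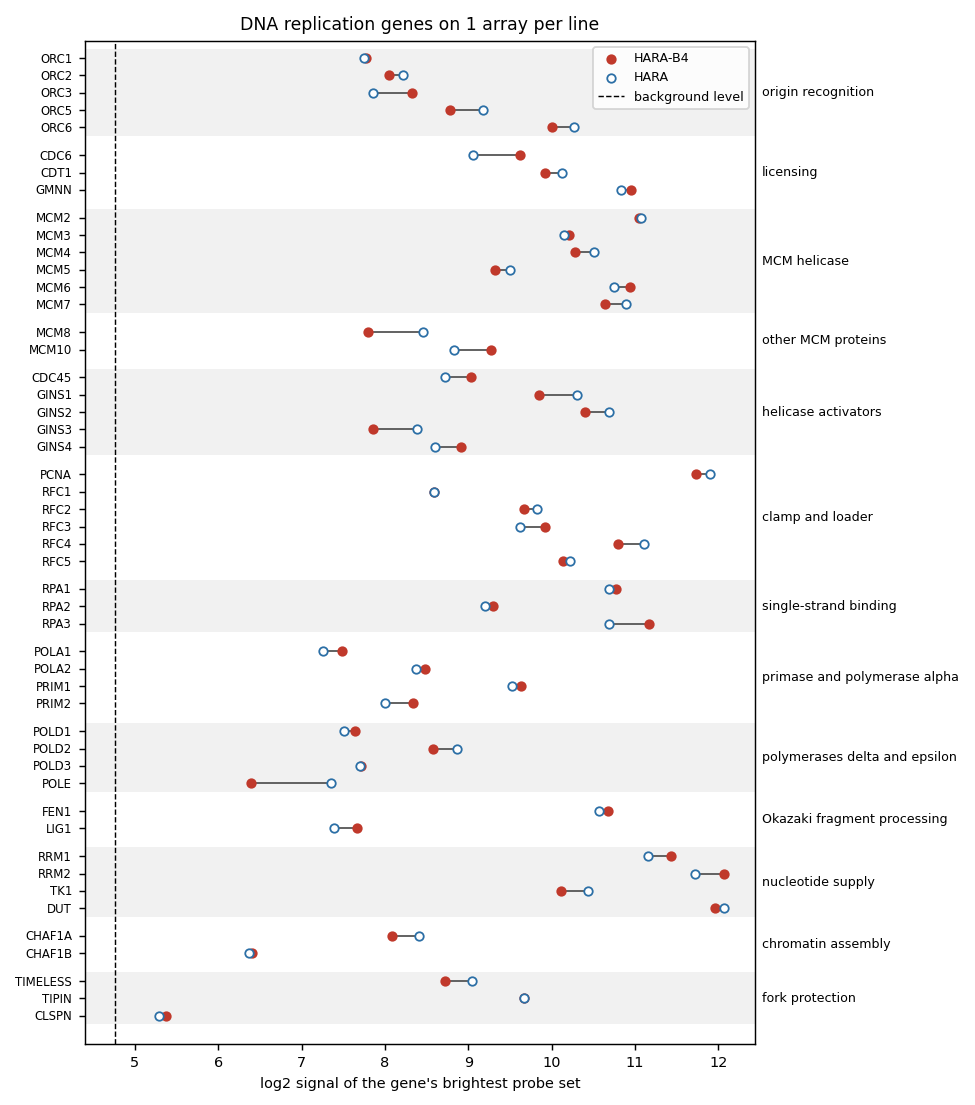
Log2 signal (x axis) of the brightest probe set of each of the 49 replication genes, grouped by role, in HARA-B4 (filled red) and HARA (open blue), 1 array each; the dashed line is the background level. Every gene lies to the right of background on both arrays, and the widest gap belongs to POLE. Signals of different genes come from different probes and are not comparable with each other.

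The origin recognition genes went both ways. ORC3, a core subunit, had a signal of 320.5 in HARA-B4 and 231.0 in HARA (log2 difference 0.47), from its only probe set. ORC5, another core subunit, had 439.5 in HARA-B4 and 577.5 in HARA (-0.39), and its second probe set above background differed by -0.37. ORC1, the subunit whose abundance follows the cell cycle, was nearly level, at 219.3 in HARA-B4 and 215.1 in HARA (0.03). ORC2 stood at 264.8 in HARA-B4 and 296.7 in HARA (-0.16), with -0.26 by its other probe set. ORC6, which helps to recruit the helicase, stood at 1028 in HARA-B4 and 1229 in HARA (-0.26). The 5 subunits therefore held 2 positive and 3 negative differences, with a median of -0.16.

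CDC6, the ATPase that joins ORC to load the helicase, had the largest positive difference of the 49 genes. Its signal was 785.3 in HARA-B4 and 532.6 in HARA (log2 difference 0.56, a ratio of 1.47), and its second probe set gave 0.69. Among all genes tested the first of these values lay at percentile 89.1. CDT1, the partner that brings the MCM ring, stood at 969.5 in HARA-B4 and 1116 in HARA (-0.20), while another of its probe sets differed by 0.08, so its direction was not settled. Geminin (GMNN), the inhibitor of CDT1, had 1989 in HARA-B4 and 1817 in HARA (0.13). Of the loading factors and their inhibitor, CDC6 alone passed 0.30 in size, which is the pooled SD between probe sets of the same gene over 4829 genes.

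The 6 subunits of the MCM helicase stayed within a narrow band, from -0.25 to 0.19, with a median of -0.10. MCM2 had a signal of 2115 in HARA-B4 and 2146 in HARA (-0.02), and MCM3 had 1185 in HARA-B4 and 1136 in HARA (0.06). MCM6 had 1962 in HARA-B4 and 1725 in HARA (0.19), with -0.06 by a second probe set. These 3 subunits are close to level between the lines. MCM4 had 1245 in HARA-B4 and 1455 in HARA (-0.23), and its 4 probe sets above background ran from -0.50 to -0.23. MCM7 had 1596 in HARA-B4 and 1895 in HARA (-0.25), with -0.17 by its other probe set. MCM5 stood at 641.2 in HARA-B4 and 721.6 in HARA (-0.17), with 0.002 by its other probe set. On their brightest probe sets all 6 subunits, which act in equal numbers, lay within 0.30 of 0, the SD between probe sets given above.

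The listed genes that share the MCM name but are not part of the ring parted. MCM8, which acts with MCM9 in recombination and fork repair, had a signal of 222.7 in HARA-B4 and 350.3 in HARA (-0.65, a ratio of HARA over HARA-B4 of 1.57), and its second probe set, which was just above background in HARA-B4 at 27.4 and stood at 41.4 in HARA, gave -0.59. MCM10, an initiation factor that helps to start the fork, had 620.6 in HARA-B4 and 453.2 in HARA (0.45), with all 3 of its probe sets between 0.33 and 0.45. Both genes thus had probe sets that agreed in sign and nearly in size.

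The factors that turn the loaded ring into a working helicase also differed among themselves. CDC45 had a signal of 522.0 in HARA-B4 and 422.3 in HARA (0.31). GINS1 had 924.5 in HARA-B4 and 1270 in HARA (-0.46), and GINS3 had 231.5 in HARA-B4 and 333.7 in HARA (-0.53), with -0.25 by its other probe set. GINS1 and GINS3 were the lower members of a complex whose other 2 subunits were less settled. GINS2 had 1348 in HARA-B4 and 1657 in HARA (-0.30), but its 3 probe sets ran from -0.47 to 0.47. GINS4 had 482.0 in HARA-B4 and 388.5 in HARA (0.31), and its 3 probe sets ran from -0.55 to 0.37. The deviating probe sets of GINS2 and GINS4 were the dim ones, with signals of at most 53.7 for the 2 of GINS2 and 41.7 for that of GINS4 in HARA-B4.

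**Figure D2:**
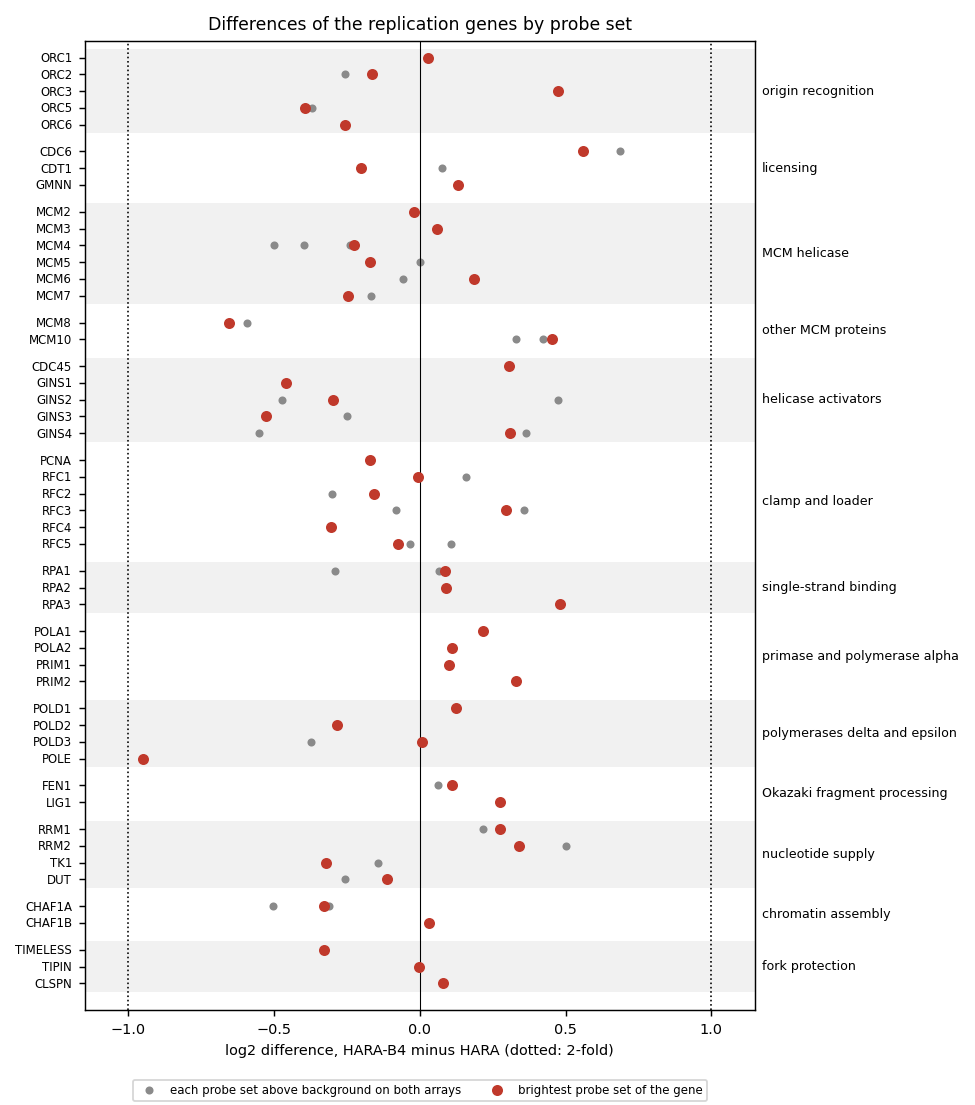
Log2 difference, HARA-B4 minus HARA (x axis), of the 49 replication genes by role: red, the brightest probe set of the gene; grey, every probe set above background on both arrays (84 in all). No point passes the dotted 2-fold lines, POLE comes nearest at -0.95, and GINS2 and GINS4 show the widest spread between their probe sets.

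All 4 genes of polymerase alpha-primase had small positive differences on their brightest probe sets. POLA1, the catalytic subunit, had a signal of 178.3 in HARA-B4 and 153.4 in HARA (0.22), and POLA2 had 358.0 in HARA-B4 and 331.8 in HARA (0.11). The other probe sets of POLA2 were dim, each above background on 1 array only, and pointed opposite ways: 1 had 27.0 in HARA-B4 and 43.5 in HARA, and the other had 33.6 in HARA-B4 and 20.6 in HARA. The primase subunits stood at 792.3 in HARA-B4 and 738.6 in HARA for PRIM1 (0.10), and at 323.1 in HARA-B4 and 257.1 in HARA for PRIM2 (0.33). For PRIM2, 2 further probe sets above background are annotated to both PRIM2 and PRIM2BP, so they were not counted, and they gave 0.49 and 0.27. Signals of PRIM2 and of that near-identical copy may not be separable.

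POLE, the catalytic subunit of the leading-strand polymerase epsilon, had the largest difference of the set. Its signal was 84.2 in HARA-B4 and 162.7 in HARA, a log2 difference of -0.95 and a ratio of HARA over HARA-B4 of 1.93, at percentile 4.68 of all genes tested. It rests on 1 probe set, so no second measurement was at hand. The listed subunits of the lagging-strand polymerase delta did not show such a gap. Its catalytic subunit POLD1 had 199.3 in HARA-B4 and 182.8 in HARA (0.12), POLD2 had 382.5 in HARA-B4 and 465.8 in HARA (-0.28), and POLD3 had 209.4 in HARA-B4 and 208.2 in HARA (0.01), with -0.37 by a dimmer probe set. POLD4, a small subunit of polymerase delta outside this list, is described below and differed by 1.09.

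PCNA and the RFC complex that loads it showed small differences. PCNA had a signal of 3394 in HARA-B4 and 3823 in HARA (-0.17). RFC1, the large loader subunit, was level at 383.8 in HARA-B4 and 385.5 in HARA (-0.01), with 0.16 by its other probe set above background. RFC3 was the only loader subunit with a positive difference on its brightest probe set, at 970.6 in HARA-B4 and 789.9 in HARA (0.30), although 1 of its 3 probe sets gave -0.08. RFC4 had 1783 in HARA-B4 and 2202 in HARA (-0.30), RFC2 had 816.9 in HARA-B4 and 910.1 in HARA (-0.16), and RFC5 had 1128 in HARA-B4 and 1189 in HARA (-0.08). The probe sets of RFC5 ran from -0.08 to 0.11, so its direction was not settled. The 6 genes of this role had a median of -0.12.

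The RPA complex, which coats single-stranded DNA, had its largest value in the smallest subunit. RPA3 had a signal of 2296 in HARA-B4 and 1645 in HARA (0.48). RPA1 had 1748 in HARA-B4 and 1646 in HARA (0.09), and RPA2 had 627.7 in HARA-B4 and 590.0 in HARA (0.09), both nearly level. RPA3 and RPA2 each rest on 1 probe set, and a dim probe set of RPA1 differed by -0.29. Of the genes that finish Okazaki fragments, the flap nuclease FEN1 had 1640 in HARA-B4 and 1519 in HARA (0.11), and DNA ligase LIG1 had 202.6 in HARA-B4 and 167.4 in HARA (0.28).

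The genes of nucleotide supply went in pairs. Both subunits of ribonucleotide reductase, which makes deoxyribonucleotides, had positive differences on every probe set. RRM1 had a signal of 2762 in HARA-B4 and 2281 in HARA (0.28, and 0.22 by a second probe set). RRM2, the subunit whose level limits the enzyme in S phase, had 4280 in HARA-B4 and 3381 in HARA (0.34, and 0.50 by a second probe set). The salvage enzyme TK1 and the dUTPase DUT, which keeps uracil out of DNA, had negative differences on every probe set. TK1 had 1112 in HARA-B4 and 1391 in HARA (-0.32, and -0.14), and DUT had 3990 in HARA-B4 and 4313 in HARA (-0.11, and as low as -0.26 among 3 probe sets). All of these differences lie under 1.5-fold.

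Of the chromatin assembly factor that deposits histones behind the fork, CHAF1A had a signal of 271.1 in HARA-B4 and 340.3 in HARA (-0.33), with 3 probe sets from -0.50 to -0.31. CHAF1B was level, at 84.4 in HARA-B4 and 82.5 in HARA (0.03). Among the fork protection genes, TIMELESS had 421.8 in HARA-B4 and 530.0 in HARA (-0.33). Its partner TIPIN was level, at 812.5 in HARA-B4 and 813.4 in HARA (-0.002). CLSPN, the adaptor of checkpoint kinase CHEK1, was near background, at 41.4 in HARA-B4 and 39.2 in HARA (0.08), with 1 of its 4 probe sets above background on both arrays, so little can be said of its level.

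Where a gene had several probe sets, they bounded how far these small differences can be read. Of the 95 probe sets, 84 were above background on both arrays and 0 of these reached 2-fold. Of 25 genes with at least 2 such probe sets, 15 had 1 sign throughout and 10 had mixed signs, with a pooled SD between probe sets of 0.22. In 6 genes every one of at least 2 probe sets passed 0.30 in size in the same direction. These were CDC6, MCM10 and RRM2 on the higher side in HARA-B4 and MCM8, ORC5 and CHAF1A on the lower side. The like counts over all probe sets and genes of the array are not given here, so these counts cannot be set against a rate at large. Probe sets on 1 array are technical repeats, and they give no measure of variation between cultures.

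The differences of the replication genes were spread less widely than those of genes at large. Their SD was 0.31, against 0.60 for all genes tested, and 30 of the 49 (61.2%) lay inside the interquartile range of all genes, from -0.29 to 0.28. Both numbers describe these arrays only, and the part of signal level in them was not tested: the median signal was 785.3 in HARA-B4 and 721.6 in HARA for the replication genes, and 185.4 in HARA-B4 and 188.0 in HARA for all genes tested. A narrow spread was not particular to the 49 genes. In the lists described below, the SD was 0.32 for 26 mitotic genes and 0.28 for 13 E2F and pocket protein genes. It was 0.47 for 50 other replication genes. Bulk RNA gives the sum over cells, so the share of cells in S phase and the amount of RNA in each such cell cannot be told apart.

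**Figure D3:**
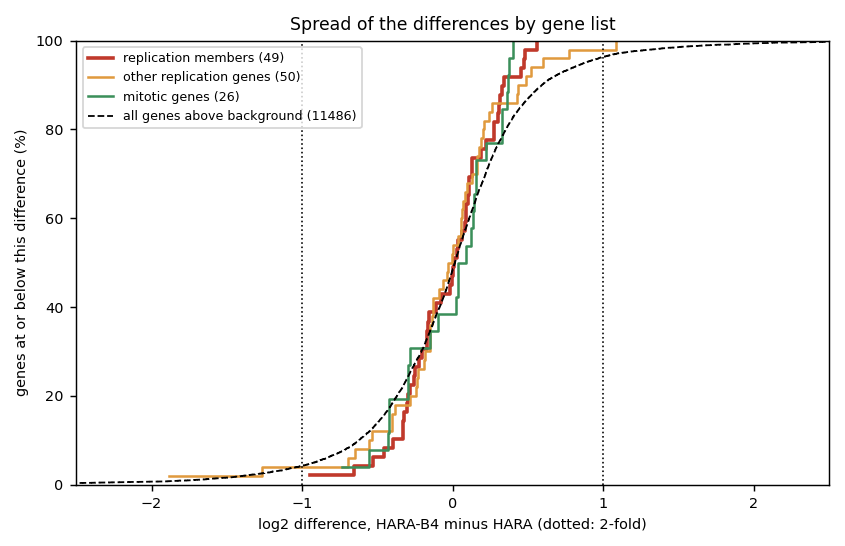
Cumulative share of genes (y axis, percent) at or below a given log2 difference, HARA-B4 minus HARA (x axis), for the 49 replication genes, 50 other replication genes, 26 mitotic genes and all 11486 genes above background on at least 1 array. The curves cross the middle near 0, and the replication genes stay between -0.95 and 0.56, inside the dotted 2-fold lines.

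Replication genes outside the 49 were taken from a list of 52, of which 50 had a named probe set. At 2-fold, 1 of these was higher in HARA-B4 and 2 were lower, or 6.0%, close to the 7.83% of all genes, with a median of -0.02. The lower ones were POLE2 and WDHD1. POLE2, the second subunit of polymerase epsilon and so the partner of POLE, had a signal of 418.5 in HARA-B4 and 1545 in HARA (log2 difference -1.88). WDHD1, which ties polymerase alpha to the helicase, had 178.0 in HARA-B4 and 428.7 in HARA (-1.27), and its 3 probe sets ran from -2.11 to -1.27. POLD4, the small accessory subunit of polymerase delta, was the higher one, at 128.2 in HARA-B4 and 60.3 in HARA (1.09). The other polymerase epsilon subunits, chosen after their values were seen, parted: POLE3 had 2281 in HARA-B4 and 1693 in HARA (0.43), and POLE4 had 218.8 in HARA-B4 and 289.5 in HARA (-0.40). POLE and POLE2, which form the core of the enzyme, were both lower in HARA-B4, by 1.93-fold and 3.69-fold. Each value rests on 1 probe set above background on both arrays. The chromosomal neighbours of POLE had a median of -0.26 and those of POLE2 -1.14.

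At 1.5-fold, 14.0% of this list differed, against 21.3% of all genes. Also chosen after their values were seen, the 4 genes of this list between 1.5-fold and 2-fold are given next. DBF4, the activator of the kinase CDC7 that fires licensed origins, had a signal of 667.7 in HARA-B4 and 1080 in HARA (-0.69), and CDC7 itself had 285.0 in HARA-B4 and 377.1 in HARA (-0.40). The chromosomal neighbours of DBF4 had a median of -0.46 and those of CDC7 -0.11. The related activator DBF4B stood the other way, at 65.1 in HARA-B4 and 38.1 in HARA (0.77). Thymidylate synthase (TYMS), which makes the thymidine nucleotide from the uridine one, had 2644 in HARA-B4 and 4140 in HARA (-0.65, and -0.75 by a second probe set), and its chromosomal neighbours had a median of -0.50. RRM2B, the reductase subunit used outside S phase, had 219.2 in HARA-B4 and 144.5 in HARA (0.60).

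The difference of each gene was set beside those of its neighbours on the chromosome. For each gene, the median difference of the 24 genes nearest to it in RefSeq order was taken, without the gene itself. Over the 49 replication genes this value ran from -0.52 to 0.41, and it had the sign of the gene's own difference for 36 of them (73.5%), against 63.5% of 10181 genes. The correlation of the gene with its neighbours was r = 0.60 (rho = 0.55) over the 49 genes and r = 0.58 without the 2 genes farthest from the median on the neighbour axis. Over all 10181 genes it was r = 0.40 (rho = 0.37). These are correlations across genes, which share the same 2 arrays and in places the same neighbours, and they carry no test.

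Named cases show the range. The neighbours of CDC6 had a median of 0.41, beside its own 0.56, and those of MCM8 -0.47, beside -0.65. PCNA lies close to MCM8 on chromosome 20 and shares some of its neighbours, and at -0.17 it stood apart from their median of -0.52. POLE had neighbours at -0.26, so its difference of -0.95 was larger than theirs. The 2 genes of the wider list that were over 2-fold lower lay among genes that were lower too: the neighbours of POLE2 had a median of -1.14 and those of WDHD1 -1.20. POLD4, in contrast, had neighbours at -0.02. By chromosome, 10 held 3 or more members, and in 5 of these all members had 1 sign on their brightest probe sets. Chromosomes 2, 7, 12, 17 and 19 held members of both signs. All 4 members on chromosome 16 (ORC6, CDT1, GINS2 and GINS3) and all 3 on chromosome 20 (PCNA, MCM8 and GINS1) had negative differences. All 4 on chromosome 6 (ORC3, GMNN, MCM3 and PRIM2), all 4 on chromosome 11 (POLA2, POLD3, FEN1 and RRM1) and all 3 on chromosome 1 (ORC1, RPA2 and CLSPN) had positive ones. Some of these signs were not settled: CDT1, GINS2 and POLD3 had probe sets of both signs, and CLSPN was near background. The median over all genes of the same chromosome above background on both arrays was near 0 for chromosome 16 (-0.07), 6 (0.07), 11 (0.07) and 1 (0.06). For chromosome 20 it was 0.16 over 290 genes, opposite in sign to its 3 members, whose own neighbours had medians from -0.52 to -0.21. Copy number was not measured, and its part in these values was not tested.

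**Figure D4:**
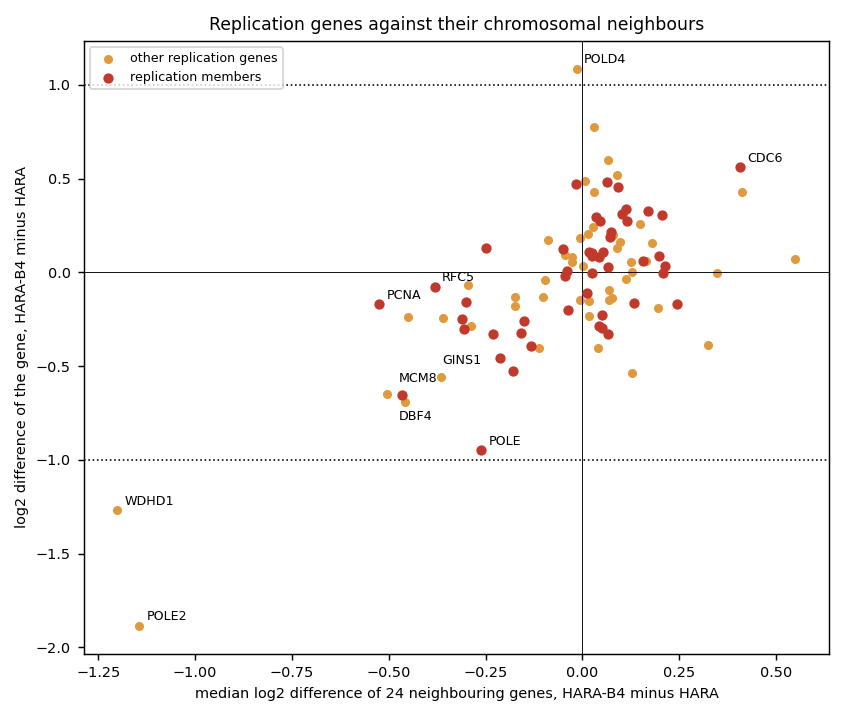
Log2 difference of each gene (y axis) against the median log2 difference of its 24 neighbouring genes (x axis), both HARA-B4 minus HARA, for the 49 replication genes (red) and 50 other replication genes (orange); dotted lines mark 2-fold. POLE2 and WDHD1 sit far to the lower left with their neighbours, CDC6 to the upper right, and POLD4 stands high above neighbours near 0.

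E2F factors, their DP partners and the pocket proteins that restrain them control many replication genes. Of 13 such genes, 0 reached 2-fold, against 7.83% of all genes, with a median of 0.04, and 1 (7.69%) reached 1.5-fold, against 21.3% of all genes. That 1 was TFDP2, a dimerisation partner of E2F, with a signal of 327.4 in HARA-B4 and 180.9 in HARA (0.86), above the highest of the 49 genes. Its 4 probe sets above background ran from 0.05 to 0.86. E2F7, a repressor of the family, had a signal of 808.5 in HARA-B4 and 787.1 in HARA (0.04), and the dimerisation partner TFDP1 had 1676 in HARA-B4 and 1695 in HARA (-0.02), with its 3 probe sets from -0.53 to 0.33. E2F1, a main activator, had 107.8 in HARA-B4 and 99.9 in HARA (0.11). TFDP2 and E2F1 were chosen after their values were seen.

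The arrays themselves were alike in level, with a mean signal, after removal of the outer 2% at each end, of 116.0 in HARA-B4 and 115.6 in HARA. Of 6 squamous markers, 4 were named on the array, and all 4 were above background on both. PKP1, a desmosomal plaque protein, was the 1 marker at 2-fold, with a signal of 672.3 in HARA-B4 and 190.8 in HARA (1.82, and 1.32 by its other probe set). KRT14 had 7345 in HARA-B4 and 3938 in HARA (0.90), KRT5 had 4504 in HARA-B4 and 4723 in HARA (-0.07), and DSG3 had 2098 in HARA-B4 and 2967 in HARA (-0.50). KRT6A and TP63 are not analysed here. Of 4 adenocarcinoma markers, 2 were above background on both arrays, none over a signal of 58.6. Of 5 fibroblast markers 1 was above background, COL1A1, with a signal of 139.9 in HARA-B4 and 184.9 in HARA (-0.40). The signals of all 5 summed to 184.3 in HARA-B4 and 223.6 in HARA. The 3 leukocyte markers named on the array were below background on both, with sums of 23.2 in HARA-B4 and 15.7 in HARA. PECAM1, 1 of 3 endothelial markers, and HBB, the 1 erythroid marker named, were above background with differences of -0.01 and -0.07.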

How the data were processed

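Intensities on a linear scale, 1 per probe set and array, were deposited by the authors, who used Affymetrix Expression Console per the submitters' processing notes; the sources used here give neither its version nor the summary algorithm and background correction. Log2 values of these were taken without rescaling. Of 54675 probe sets, 41097 had 1 gene symbol in the platform annotation, 1801 several and 11777 none; 41043 were matched by Entrez ID to RefSeq (GRCh38.p14), which served for symbols, gene order and promoters. A gene was represented by its brightest probe set (mean log2 over both arrays). Values below background were set to it, and a gene was called at a log2 difference of 1 in size. With 1 array per line no test was possible, and precision is limited by the number of arrays. The members and lists were chosen with earlier results of these data known. Every member is named with its values; in other lists the genes at 2-fold, or else the 2 brightest, are named, and any further gene is marked as picked with its values known. Calls were checked on simulated data. Alternatives covered scaling, background, probe set choice and thresholds. Python 3.11.15, numpy, pandas 2.3.3, statsmodels 0.14.6 (lowess) and matplotlib were used.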

Additional observations from a re-analysis of the deposited data

How the results depend on the processing

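The 49 genes held 0 calls under 11 of 12 alternatives, and 2 (POLE and MCM8, both lower) at 1.5-fold, against 21.3% of all genes. The 3-fold threshold and the rule that all probe sets must pass can only remove calls, so their result was fixed in advance. The same holds for log2(signal + 16) and the raised background, which can only shrink the difference of a given probe set. Lowering the background could not change the 49 genes either, since all were above it on both arrays. The median of the 49 genes stayed between -0.02 and 0.04 under 10 alternatives. Differences of single genes under 8 alternatives of scaling, background and probe set stayed between -0.97 and 0.62. Of the 49 genes, 43 kept 1 sign in every such setting that left them above background, and 6 did not (MCM4, MCM5, GINS4, RPA1, POLA2 and POLD3). The only positive probe set of MCM4 was below background on both arrays, at 21.2 in HARA-B4 and 5.38 in HARA. Its 4 probe sets above background were all negative. With the less specific probe sets (suffix _x_at or _s_at) left out, 36 of the 49 were left. The related replication genes at 2-fold numbered 3 of 50 as reported, against 7.83% of all genes. They numbered 5 of 46 with the mean of all probe sets, against 7.48%. At 1.5-fold there were 7 of 50, against 21.3%, and at 3-fold 1 of 50, against 2.58%. With log2(signal + 16) there were 2 of 50, both lower, against 5.65%, and POLD4, the 1 higher call, fell short of 2-fold at 0.92. With the neighbours' median subtracted, chosen after seeing the data, 1 of 50 was left, against 6.53%. It was POLD4, since POLE2 and WDHD1 lay among lower genes. The median of the related genes stayed between -0.11 and -0.0017. No paired analysis was possible because each line has 1 array. Probe sets near background, such as that of CLSPN, limit what can be read.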

Other observations

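Mitotic genes mark dividing cells at a later stage of the cycle. Of 26, 0 reached 2-fold, against 7.83% of all genes, and 1 (3.85%) reached 1.5-fold, against 21.3%, with a median of 0.06 and 16 positive and 10 negative differences. CDK1, the mitotic kinase, had a signal of 3793 in HARA-B4 and 3416 in HARA (0.15), and NUSAP1, a spindle protein, had 2411 in HARA-B4 and 2192 in HARA (0.14). NDC80, a kinetochore gene chosen after its values were seen, was the lowest, at 638.9 in HARA-B4 and 1062 in HARA (-0.73), and its neighbours had a median of -0.50. TYMS had neighbours with the same median of -0.50, since both genes lie near 1 end of their chromosome. CENPE, a kinetochore motor also chosen after its values were seen, differed by -0.56 beside neighbours at -0.52.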
